A study of Mus musculus with 180 samples.

Results

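CD11b+CD48+SK cells were compared with fetal liver haematopoietic stem cells (FL HSC) cell by cell, on the level of every gene. The members are all cells whose label names either population, 47 CD11b+CD48+SK cells and 56 FL HSC among 180 single cells analysed. The other cells, 36 BM HSC and 41 WT-MPP, are used only to set levels side by side. All cells came from C57BL/6 mice. CD11b+CD48+SK cells descended from multipotent progenitors (MPP) of Mx1cre/Rosa LSL-Hoxb5-EGFP/+ donors, in which Hoxb5 and EGFP sit behind a stop cassette at Rosa26 and Cre is driven by the Mx1 promoter. The MPP went into lethally irradiated CD45.1+ recipients with helper cells, and pIpC given to the recipients induced Cre. At Week 8 post-transplantation, the GFP+ donor cells (CD45.2+) that lacked lineage markers and bore Sca1, c-kit, CD48 and CD11b were sorted from bone marrow. FL HSC carried the Rosa LSL-Hoxb5-EGFP/+ allele without Cre and were sorted from embryos at Day14.5 by a gate on Sca1, c-Kit, CD11b (Mac1) and CD150. BM HSC and WT-MPP carried that allele too and came from mice 8 weeks old. The source label reads bone marrow for all 4 populations, so the fetal liver origin rests on the label of the cell type. The induced Hoxb5, the passage through an irradiated host, pIpC, age, tissue and the gate (CD48 against CD150) all differ between the populations and cannot be told apart.

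Fetal liver is the site where HSC expand before birth. HSC there divide often and carry CD11b on their surface, whereas adult bone marrow HSC are mostly quiescent and lack it. Stem cells are usually recognised by CD150 without CD48, MPP keep multilineage output without lasting self-renewal and show Flt3 (CD135), and progenitors at this stage often transcribe lineage genes before they commit. Hoxb5 is a homeobox transcription factor of the HoxB cluster.

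The measurement is the level of each gene in each cell in TPM (transcripts scaled to a fixed total), which sums to 1000000 in every cell and keeps no read number, so the depth is unknown. A cell had, in the median, 4514 genes at 1 TPM or above among CD11b+CD48+SK cells (3039 to 6791) and 5206.5 among FL HSC (3974 to 6789), and no cell's values were identical to another's. No animal is named, so each population is 1 sample. Differences below therefore carry no p-value and no error between animals, and the spread given is over cells. Levels are means over cells of log2(TPM+1), a difference is that of CD11b+CD48+SK cells minus that of FL HSC, and a gene is called present in a cell from 1 TPM upwards. Intervals on shares are 95% Clopper-Pearson intervals for counted cells. Where a gene was present in 0 cells, the limit given is instead the share that 3 cells would make, 5.36% of FL HSC and 6.38% of CD11b+CD48+SK cells. It holds for cells at 1 TPM or above and for counting error only, and a transcript that the assay missed is not covered by it. Transcripts of the Y-linked genes were found in 15 of 56 FL HSC and Xist in 17, never in the same cell, against 4 and 37 of 47 CD11b+CD48+SK cells, so both populations hold cells of both sexes.

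Of the 14825 listed genes, 10406 were present in at least 10% of the cells of either population. Their median difference was -0.36, and 73.97% lay within 1 of 0. A difference of 2 or more (4 times on this scale) was reached by 142 genes in favour of CD11b+CD48+SK cells (1.36%) and by 554 genes in favour of FL HSC (5.32%). These counts were 296 and 1370 with a pseudocount of 0.1 in place of 1 and 54 and 108 with a pseudocount of 10, so low values weigh on them. Counts of list members past 2 are to be read against the shares of 1.36% and 5.32%. The lists were written with earlier results of these data known, so an excess over these shares is not independent evidence. The share of cells in which a gene was present was higher by 50 points or more in CD11b+CD48+SK cells for 67 genes (0.644%) and in FL HSC for 116 genes (1.11%). The values of the cells did not overlap at all for 9 genes. Dntt, Cst7, Plac8, Snx22 and Rpl7a were higher in every CD11b+CD48+SK cell than in any FL HSC, and the reverse held for Gimap6, Oaz1, Gm5506 and Pisd-ps3. Of these 9, Snx22, Gimap6, Oaz1 and Gm5506 were picked after their values were seen.

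**Figure D1:**
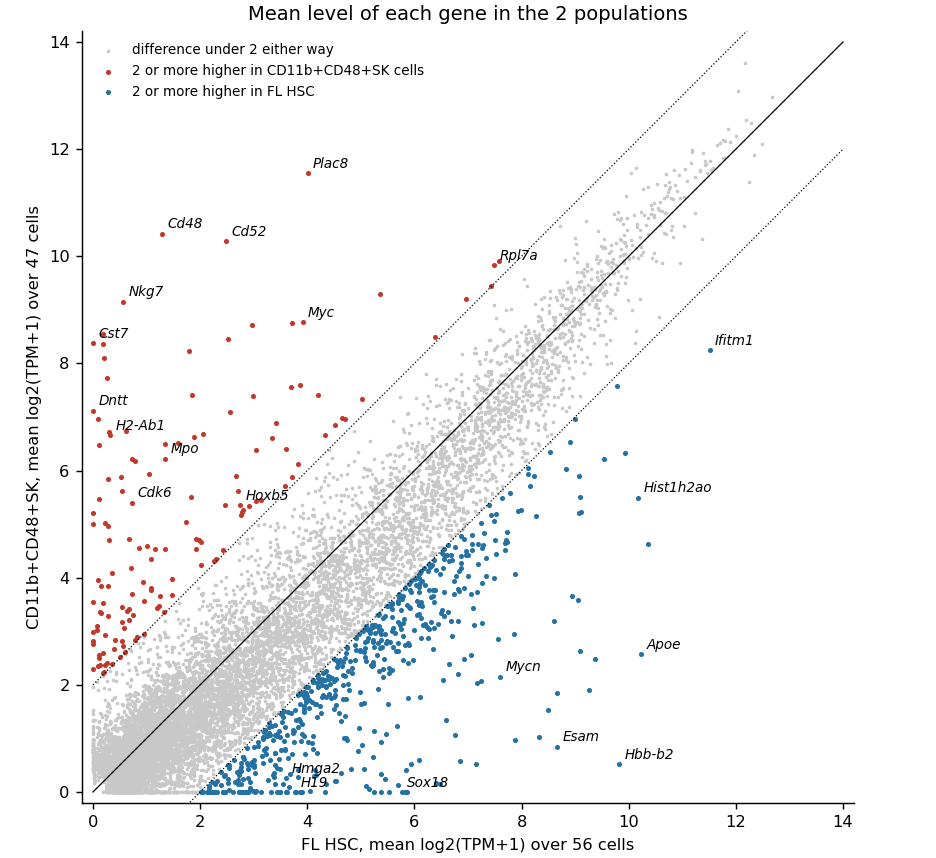
Mean log2(TPM+1) of each of the 10406 genes in FL HSC (x axis, 56 cells) and CD11b+CD48+SK cells (y axis, 47 cells), with the line of equality and dotted lines at a difference of 2. The 142 genes above the upper dotted line include many that lie near 0 in FL HSC (Cst7, Dntt, Nkg7), and the 554 genes below the lower one include Hbb-b2, Esam and Apoe.

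Among genes higher in CD11b+CD48+SK cells, the largest difference was that of Cd48 (9.13), which was part of the gate, followed by that of Nkg7. Nkg7, a granule protein of natural killer and T cells, ranged from 0 to 4176 TPM over CD11b+CD48+SK cells with a median of 1024, and in FL HSC its median was 0 and its highest value 290 TPM. The difference was 8.59, and 46 of 47 against 5 of 56 cells had the transcript. Cst7 encodes cystatin F, an inhibitor of lysosomal cysteine proteases. It ranged from 0.822 to 1767 TPM (median 353) in CD11b+CD48+SK cells and was at 0 in each of the 56 FL HSC (limit 5.36%). Its groups therefore did not overlap, and the difference in level was 8.38. Dntt, the terminal transferase that adds bases to rearranging antigen receptor genes, was at 0 in the same 56 cells. In CD11b+CD48+SK cells it ran from 0.355 to 5177 TPM with a median of 262, a wider spread than that of Cst7, and its difference was 7.12.

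Serpinb1a, an inhibitor of neutrophil serine proteases, was present in all 47 CD11b+CD48+SK cells at a median of 507 TPM and in 2 FL HSC (difference 8.36). Lat2, a membrane adaptor of B and myeloid cells, had a median of 428 TPM against a highest FL HSC value of 19.4 TPM (8.17). Tespa1, which acts in T cell receptor signalling, was present in 44 CD11b+CD48+SK cells and in 1 of the FL HSC (6.36), and so was Gpr97, an adhesion receptor of granulocytes (6.86). These genes were near 0 in almost every FL HSC. Cd72, a co-receptor of B cells, was present in 46 CD11b+CD48+SK cells and 2 FL HSC (7.88).

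Cd52 and Plac8 differed in another way, since a part of the FL HSC also carried them. Cd52, a surface glycopeptide of lymphocytes, ranged from 193 to 2911 TPM (median 1448) in CD11b+CD48+SK cells and was present in 22 of 56 FL HSC, up to 256 TPM (7.79). Plac8, a small cysteine-rich protein of myeloid and lymphoid progenitors, was at 1234 to 7414 TPM in CD11b+CD48+SK cells and at 0 to 716 TPM in FL HSC, 30 of which had it (7.54). H2-Q7 (7.46), H2-DMa (6.44) and H2-Ab1 (6.34) encode antigen presentation molecules and are described with their lists, and BC035044 (6.41), a gene without an assigned role here, was also among the 15 largest.

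The 15 largest differences in favour of FL HSC held 3 beta-globins, stem cell surface genes and growth inhibitors. Hbb-b2 ranged from 2.86 to 6651 TPM over FL HSC with a median of 1350, and was present in 7 CD11b+CD48+SK cells, at most 80.8 TPM (-9.30). Beta-s (-7.36) and Hbb-b1 (-6.89) are near-identical copies of it, between which the estimated reads may have been divided. Esam, an adhesion molecule of endothelium and HSC, was present in all 56 FL HSC (1.3 to 1310 TPM, median 485) and in 6 CD11b+CD48+SK cells, up to 313 TPM (-7.82). Few CD11b+CD48+SK cells had Hbb-b2 or Esam, and the highest of them lay within the range of FL HSC.

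Pdzk1ip1, a small membrane protein high in HSC, was present in all FL HSC at a median of 420 TPM and in 10 CD11b+CD48+SK cells (-6.97). Cdkn1c, which encodes the Cdk inhibitor p57, was present in 48 FL HSC (median 174 TPM) and in 1 CD11b+CD48+SK cell, at 68.7 TPM (-6.33). Apoe, a lipid carrier, was unlike these in that 35 CD11b+CD48+SK cells were above the limit of 1 TPM, yet only 25.5% reached a TPM of 10, where 98.2% of FL HSC did (-7.66). Others among the largest were Maged2 (-7.30), Serpinf1 (-6.62), Ltb (-6.46), AI848285 (-6.28), Mfap2 (-6.24) and the pseudogene Pisd-ps3 (-5.85). Pisd-ps3 was present in all 56 FL HSC and in none of the cells of the other populations, and has near-identical copies, so reads of those copies may be counted in its value.

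**Figure D2:**
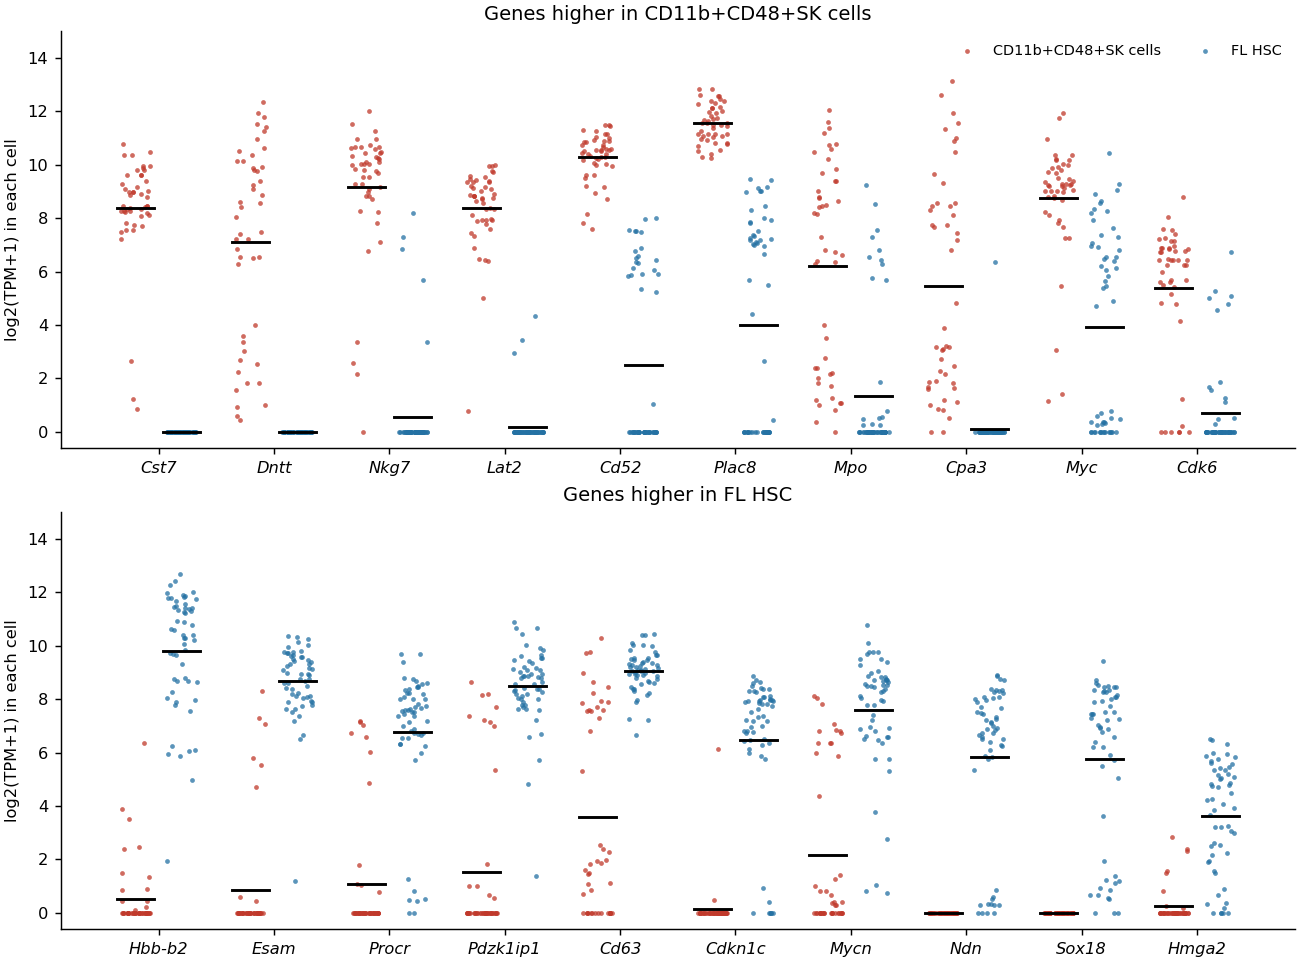
log2(TPM+1) in each of the 47 CD11b+CD48+SK cells (red) and 56 FL HSC (blue) for 10 genes higher in each population, with bars at the mean. Cst7 and Dntt are at 0 in every FL HSC, Ndn and Sox18 in every CD11b+CD48+SK cell, and Dntt, Mpo and Cpa3 each form a high and a low cloud among CD11b+CD48+SK cells.

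Single cells carried these genes together. Of the 15 genes with the largest differences in favour of CD11b+CD48+SK cells, each of those cells had at least 13 at a TPM of 1 or more and 11 at a TPM of 10 or more, while FL HSC had between 0 and 8 (median 2). For the 15 genes in favour of FL HSC, FL HSC had 12 or more and CD11b+CD48+SK cells 0 to 9 (median 3). As the genes were chosen on these cells, the numbers describe the cells and support nothing. The ranges of the populations did not meet in either set.

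The promoters of 4 genes that differed by more than 2 are shown because they belong to genes at 0 in every FL HSC (Cst7, Dntt) and to HSC genes found in few CD11b+CD48+SK cells (Pdzk1ip1, Procr). Each is 300 bases long, spans the start of the gene and was taken from RefSeq (GRCm38.p6), all 4 on the plus strand. Capitals mark matches, on either strand, to 3 motifs that do not overlap here. The letters searched were TAATTA as the core bound by many homeodomain proteins. For the zinc finger factors of the erythroid and stem cell type they were AGATAA. For the ETS family, which includes PU.1, the letters were AGGAAG. Cst7 lies at chr2:150570165-150570464, Dntt at chr19:41029025-41029324, Pdzk1ip1 at chr4:115088458-115088757 and Procr at chr2:155750967-155751266.
Cst7: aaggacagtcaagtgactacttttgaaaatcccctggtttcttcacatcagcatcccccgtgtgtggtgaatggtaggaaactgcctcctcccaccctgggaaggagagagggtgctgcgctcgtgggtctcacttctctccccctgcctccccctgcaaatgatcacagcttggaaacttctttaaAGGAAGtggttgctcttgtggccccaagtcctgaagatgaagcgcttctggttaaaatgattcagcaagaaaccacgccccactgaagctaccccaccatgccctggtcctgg
Dntt: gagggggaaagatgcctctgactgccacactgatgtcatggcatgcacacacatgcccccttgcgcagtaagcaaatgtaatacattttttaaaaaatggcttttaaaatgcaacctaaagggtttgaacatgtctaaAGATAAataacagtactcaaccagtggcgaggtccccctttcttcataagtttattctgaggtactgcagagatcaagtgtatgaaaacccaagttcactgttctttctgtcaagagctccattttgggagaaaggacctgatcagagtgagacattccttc
Pdzk1ip1: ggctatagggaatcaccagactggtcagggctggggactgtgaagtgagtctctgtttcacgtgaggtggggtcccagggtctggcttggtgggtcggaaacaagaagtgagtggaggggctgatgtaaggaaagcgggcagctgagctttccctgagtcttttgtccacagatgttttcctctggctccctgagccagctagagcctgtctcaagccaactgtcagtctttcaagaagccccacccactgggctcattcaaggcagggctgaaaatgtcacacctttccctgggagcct
Procr: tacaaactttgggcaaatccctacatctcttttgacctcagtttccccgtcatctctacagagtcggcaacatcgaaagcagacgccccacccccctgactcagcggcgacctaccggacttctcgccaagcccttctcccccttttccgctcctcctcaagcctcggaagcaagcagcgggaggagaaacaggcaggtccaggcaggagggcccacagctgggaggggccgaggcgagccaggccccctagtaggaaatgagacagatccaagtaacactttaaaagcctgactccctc

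Cst7 holds 1 match to AGGAAG and Dntt 1 match to AGATAA, and neither Pdzk1ip1 nor Procr holds any of the 3 motifs in its window. TAATTA is in 5.31% of 27025 RefSeq promoters, AGATAA in 11.4% and AGGAAG in 35.1%. Of the 10 genes with an entry among the 15 highest in CD11b+CD48+SK cells, 0 promoters held TAATTA, 2 held AGATAA and 6 held AGGAAG, and of the 7 on the FL HSC side these numbers were 0, 2 and 2. A match describes the letters only and is not a binding site.

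The transcripts of the gated surface proteins followed the gates in part. Cd48 was at 397 TPM or more in every CD11b+CD48+SK cell and present in 10 FL HSC. Slamf1, the gene of CD150, was detected in 55.4% of FL HSC (41.5 to 68.7%) and 6.38% of CD11b+CD48+SK cells (1.34 to 17.5%), a difference of -3.34. Itgam, which encodes the CD11b of both gates, was present in 36.2% and 16.1% (0.95), so most cells sorted on this protein were below 1 TPM for its transcript. Kit was lower in CD11b+CD48+SK cells (-1.52), and Ly6a (-0.13) and Ptprc (-0.29) were close to equal. Flt3 (3.33) and Cd34 (1.21), whose proteins were in neither of these gates, were higher in CD11b+CD48+SK cells. Of these 8 genes, Cd48 and Flt3 were past a difference of 2 upwards and Slamf1 downwards.

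Hoxb5, on chromosome 11 from 96303336 to 96306121 (plus strand, GRCm38), is the gene induced in the donor cells. It ranged from 0 to 191 TPM (median 65.7) in CD11b+CD48+SK cells and from 0 to 102 TPM (median 6.11) in FL HSC. It was present in 43 and 32 cells and differed by 2.61, with overlapping cells. The table does not separate the inserted from the native gene. Of the 15 measured members of the Hox, Meis and Pbx list, Hoxb5 alone was past 2 upwards. Meis1 (-3.09), Hoxb2 (-2.46) and Hoxa5 (-2.37) were past 2 downwards. The list's median was -0.44 (-0.20 to -1.56 over the settings tried). Hoxb2, a neighbour of Hoxb5, was present in 28 FL HSC and in 0 of 47 CD11b+CD48+SK cells (limit 6.38%).

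The genes the study named from these populations divided into those that differed little and those that were higher in CD11b+CD48+SK cells. Because they were chosen on these cells, their direction is not independent evidence. Birc5, which acts in cytokinesis, was present in 40.4% of CD11b+CD48+SK cells and 37.5% of FL HSC (-0.52). The replication licensing and initiation genes Cdt1 (-0.45), Cdc45 (-0.18), Gins1 (0.99) and Gmnn (-1.37) also stayed within 2. Cdk6, a kinase of G1 phase, had a median of 85.2 TPM in CD11b+CD48+SK cells and of 0 in FL HSC and was present in 85.1% (71.7 to 93.8%) and 19.6% (10.2 to 32.4%) of the cells (4.68). The chromatin organiser Satb1 (2.99) and the transcription factor Runx3 (2.45) were higher as well, while Mybl2 (0.68) was not past the limit. Runx3 was found in 24 CD11b+CD48+SK cells and 2 FL HSC.

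Several early lymphoid genes were higher in CD11b+CD48+SK cells. Of 38 genes in a list of early lymphoid genes, 30 were measured in enough cells, and 11 were past a difference of 2 in favour of CD11b+CD48+SK cells, 36.7% beside 1.36% over all genes. They included Nkg7, Lat2, Cd52, Dntt, Tespa1, Cd53 (3.86), Flt3, Itgb7 (3.27), Satb1 and Runx3. Ltb (-6.46), the actin-binding Cnn3 (-3.65) and Tcf3 (-2.07), which encodes the E proteins of lymphoid specification, were past the limit in the other direction. The list's median was 0.65. Because its members were chosen with earlier results of these data known, its excess over all genes describes the list and is not independent evidence. Markers of committed lymphoid cells were uneven. Il7r was present in 2 CD11b+CD48+SK cells, Rag1 in 0, Igll1 in 2 and Cd79a in 0, and of T cell genes Cd3d was present in 1 and Cd3g in 0, whereas Cd72 was present in 46, Cd79b in 29, Cd74 in 28, Lat in 45 and Lck, a T cell kinase picked after its values were seen, in 18. Summed over the 10 listed B cell markers, the level ran from 0.981 to 2544 TPM in CD11b+CD48+SK cells and from 0 to 968 TPM in FL HSC, with Cd72 and Cd74 (2.75) past 2 upwards and Cd79b (-2.04) downwards among 5 measured. The 14 listed T and NK cell markers summed to 134 to 5116 TPM and 0 to 662 TPM, with Nkg7 and Lat (3.47) the 2 of 4 measured members past the limit. RNA of such cells as a part of the lymphoid values was not tested.

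Myeloid genes were split. Of 37 measured granule and monocyte genes, 11 were higher in CD11b+CD48+SK cells by 2 or more (29.7% beside 1.36% over all genes) and 4 in FL HSC (10.8% beside 5.32%), around a median of 0.54. Cst7, Plac8 and Gpr97 led, followed by the chemokine Ccl9 (5.56), the granule protease Ctsg (5.21) and Mpo (4.88), the myeloperoxidase of azurophil granules. Mpo was present in 43 CD11b+CD48+SK cells, from 0 to 4282 TPM (median 110), and in 11 FL HSC, up to 609 TPM. Ctsg was absent from all 56 FL HSC, and in CD11b+CD48+SK cells its median was 8.98 TPM and its highest value 3470 TPM. Cebpa, which directs granulocyte and monocyte fate, was present in 23 CD11b+CD48+SK cells and in 0 FL HSC (2.31). In the other direction were Mgst1 (-3.50), Ccl4 (-3.30), Ctsc (-2.57), which activates granule proteases, and Cebpb (-2.37). Elane, which encodes neutrophil elastase, was present in 0 CD11b+CD48+SK cells and 2 FL HSC. Cpa3, a protease of mast cells and their progenitors, was present in 41 CD11b+CD48+SK cells and in 1 of the FL HSC (5.36), and it was the only 1 of 6 measured mast and basophil markers past the limit. The 12 listed markers of those cells summed to 0 to 9338 TPM in CD11b+CD48+SK cells and 20.9 to 652 TPM in FL HSC.

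Lymphoid and myeloid transcripts occurred in the same cells. Dntt and Mpo were both present in 40 of 47 CD11b+CD48+SK cells, Dntt alone in 4 and Mpo alone in 3. Low values made up part of this, because many CD11b+CD48+SK cells had these genes between 1 and 10 TPM. At a TPM of 10 or more, 22 cells had both, 13 Dntt alone, 9 Mpo alone and 3 neither. For Dntt and Cpa3 at that limit, 14 cells had both, 21 Dntt alone and 10 Cpa3 alone. In FL HSC, 10 cells had Mpo at 10 TPM or more and none had Dntt. Where the values below 10 TPM come from was not tested.

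**Figure D3:**
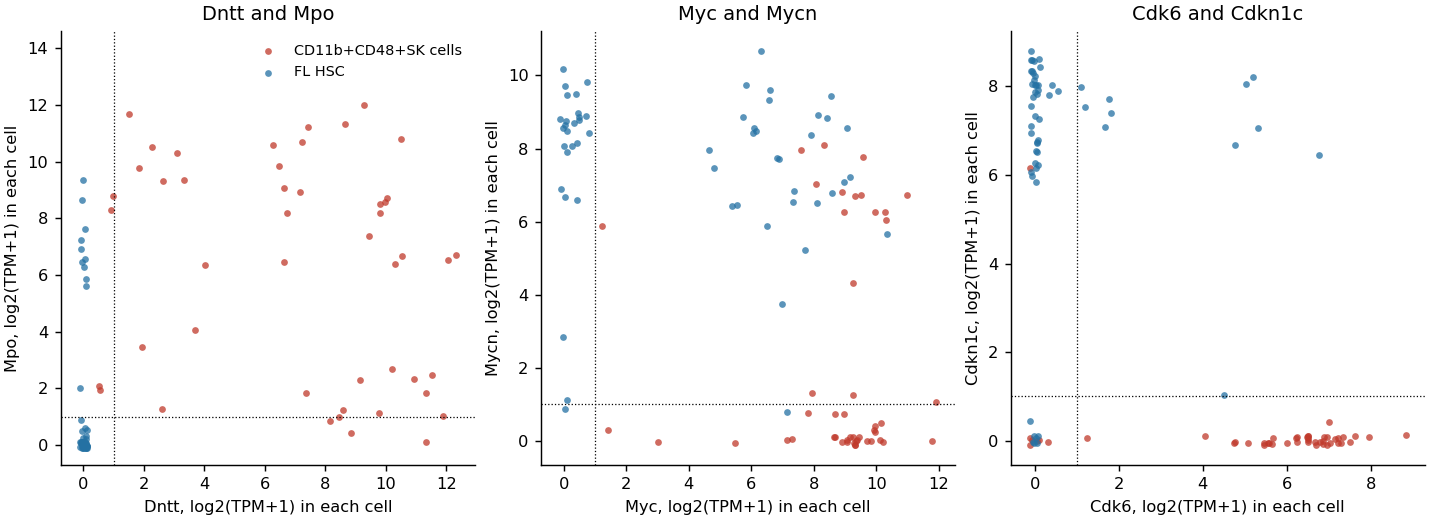
Each point is a cell, CD11b+CD48+SK (red) or FL HSC (blue), placed by its log2(TPM+1) for Dntt and Mpo, Myc and Mycn, and Cdk6 and Cdkn1c, with dotted lines at a TPM of 1 and small random shifts against overlap. FL HSC lie on the Mpo axis at 0 Dntt, 31 of 47 CD11b+CD48+SK cells have Myc but lack Mycn at 1 TPM, and no CD11b+CD48+SK cell has both Cdk6 and Cdkn1c.

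Many antigen presentation genes were higher in CD11b+CD48+SK cells than in FL HSC. In the class II list, 7 of 11 measured genes were past 2 upwards and 0 downwards, with a median of 2.52 (1.36 to 4.27 over the settings tried), and each of the 11 differences was above 0. H2-DMa, which loads peptides onto class II, was at 2.71 TPM or more in all 47 CD11b+CD48+SK cells (median 316) and present in 16 FL HSC. H2-Ab1, a class II beta chain, was present in 41 and 3 cells, H2-Ob (5.57), which restrains loading, in 43 and 3, and the invariant chain Cd74 in 28 and 8. Ctss (2.97) and H2-DMb1 (2.52) were past the limit too. In the class I list, 7 of 28 genes were past 2 upwards and 0 downwards (median 1.11). Tap1, which carries peptides into the endoplasmic reticulum, had a median of 79.9 TPM in CD11b+CD48+SK cells and 0.278 TPM in FL HSC (2.46). H2-Q7, H2-Q9 (4.99), H2-Q6 (4.69) and H2-Q8 (2.15), like H2-L (2.22), have near-identical relatives and their split is uncertain. FL HSC had the lowest sums of the 4 populations. In the order CD11b+CD48+SK cells, FL HSC, BM HSC and WT-MPP, the median sum of the 31 listed class I genes was 26668, 10545, 30288 and 30835 TPM. For the 12 listed class II genes it was 1124, 87.5, 617 and 1106 TPM.

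Of 45 measured interferon-stimulated genes, 5 were past 2 in favour of FL HSC (11.1% beside 5.32%) and Ifi27l1 (4.41) in favour of CD11b+CD48+SK cells, with a median of -0.80. Ifitm1, a membrane protein that blocks viral entry and is high in stem cells, was at 562 TPM or more in every FL HSC (median 3168) and at a median of 391 TPM in CD11b+CD48+SK cells (-3.26). Samhd1 (-2.60), Irf7 (-2.45), Xaf1 (-2.28) and Dhx58 (-2.22) were lower too. Cells of both populations overlapped for each of these 5 genes.

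Stem cell genes were lower in CD11b+CD48+SK cells for a large part of the list. Among 31 measured HSC surface and signalling genes, 14 were past 2 in favour of FL HSC (45.2% beside 5.32% over all genes) and 2 in the other direction, around a median of -1.75 (-0.91 to -2.36 over the settings tried). Procr, the protein C receptor used to isolate HSC, was present in 50 FL HSC (median 186 TPM) and 10 CD11b+CD48+SK cells (-5.70). Cd63, a tetraspanin, was at 99.1 TPM or more in every FL HSC and at a median of 2.66 TPM in CD11b+CD48+SK cells (-5.47). Rgs1 (2.77), a regulator of G protein signalling, and Myl10 (3.47), a myosin light chain, went the other way. Rgs1 was absent from all 56 FL HSC and present in 24 CD11b+CD48+SK cells.

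Of 35 measured HSC transcription factors, 7 were past 2 in favour of FL HSC and 2 in favour of CD11b+CD48+SK cells (median -0.75). Mycn differed most (-5.44). Mecom, which HSC need for self-renewal, was present in 33 FL HSC and in 3 CD11b+CD48+SK cells (-2.75). Hlf, a stem cell factor, was present in 49 and 8 cells (-3.24), and Meis1, a partner of Hox proteins, in 51 and 24 (-3.09). Gfi1 (-3.50), Nkx2-3 (-3.40) and Hoxa5 followed, and Myc (4.86) and Cebpa were higher in CD11b+CD48+SK cells. The other measured factors stayed within 2, and 9 of the 35 differences were above 0.

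Genes that stem cells share with endothelium formed the list with 11 of 24 measured members past 2 in favour of FL HSC and 0 past it in the other direction, with a median of -1.56 (-0.75 to -2.55 over the settings tried). Sox18, an endothelial transcription factor, was present in 47 FL HSC (median 139 TPM) and in 0 of 47 CD11b+CD48+SK cells (limit 6.38%). Rasip1 (-4.33), a regulator of vessel formation, was present in 40 FL HSC and in 0 CD11b+CD48+SK cells. Emcn (-4.99), a sialomucin of HSC and endothelium, was found in 40 and 1 cells, and Ecscr (-5.49) in 48 and 5. Other members were found in few FL HSC, with Cdh5, the cadherin of endothelial junctions, present in 7, Kdr in 1 and Cldn5 in 4 of 56 cells.

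Of 12 measured genes of the fetal programme, 4 were past 2 in favour of FL HSC and Crip1 (2.34) in favour of CD11b+CD48+SK cells, 3 differences were above 0, and the median was -1.80 (-0.75 to -3.39 over the settings tried). Hmga2, a chromatin protein of fetal self-renewal, was present in 46 FL HSC (median 16.7 TPM) and in 5 CD11b+CD48+SK cells, none above 6.1 TPM (-3.36). Igf2bp2, an RNA-binding protein of the same programme, was present in 34 and 0 cells (-2.97). Lin28b, which sits above both, was present in only 7 FL HSC and in 0 CD11b+CD48+SK cells. Cnn3 was shared more, with 54 FL HSC (median 200 TPM) and 24 CD11b+CD48+SK cells (median 1.99 TPM).

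Imprinted growth genes had a median of -2.14, which ran from -0.89 to -3.94 over the settings tried, with 7 of 14 measured genes past 2 in favour of FL HSC and 0 in the other direction. H19, a non-coding RNA of the growing embryo, was present in 37 FL HSC (median 28.8 TPM) and was not found in any of the 47 CD11b+CD48+SK cells (-3.78). Its neighbour Igf2 on chromosome 7, a fetal growth factor, was present in 32 and 0 cells (-2.44). Ndn, which restrains the cycle of stem cells, was present in 44 and 0 (-5.82), Grb10, an inhibitor of insulin and Igf signalling, in 32 and 0 (-2.61), and Dlk1, a Notch-like surface protein, in 29 and 0 (-2.28). Together with Cdkn1c and Sgce (-2.81), these are the 7 genes.

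The globin transcripts of FL HSC were set beside markers of erythroid cells and hepatocytes, the main other cell types of fetal liver. Beta-globins were present in 55 or 56 of 56 FL HSC, whereas Hba-a1 was present in 1 and Hba-a2 in 9. The erythroid factors Gata1 and Klf1 were present in 4 and 2 FL HSC and in 3 and 3 CD11b+CD48+SK cells. Of 10 measured erythroid markers, Epor alone was past 2 (-2.73), being found in 23 FL HSC and in 0 CD11b+CD48+SK cells, and the summed level of the 16 listed markers ran from 982 to 10787 TPM in FL HSC and from 216 to 4971 TPM in CD11b+CD48+SK cells. Alb, the defining hepatocyte transcript, was present in 1 FL HSC. The 10 listed hepatocyte genes summed to 0 to 524 TPM in FL HSC and 0 to 1029 TPM in CD11b+CD48+SK cells. Of 6 measured, Trf (2.30) was past 2 in favour of CD11b+CD48+SK cells and Dlk1 (-2.28), present in 29 FL HSC and in 0 CD11b+CD48+SK cells, in favour of FL HSC, around a median of -0.54. The part of RNA from other cells in the globin values was not tested.

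**Figure D4:**
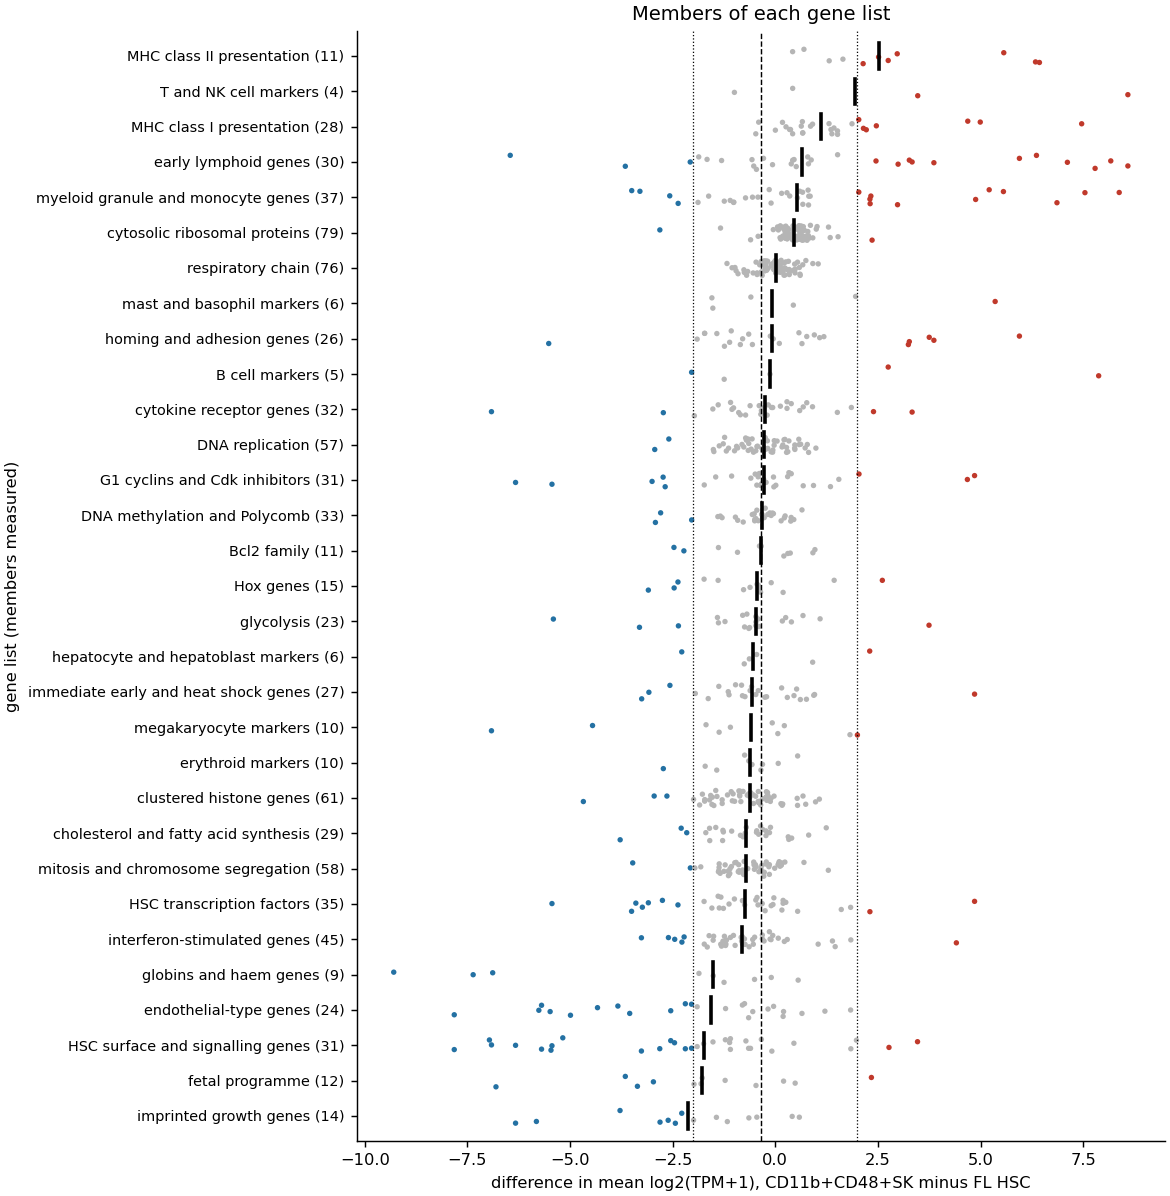
Difference in mean log2(TPM+1) of each measured member (points) of 31 gene lists, ordered by their median (black bars), with the median of all genes at -0.36 (dashed) and the limits at 2 and -2 (dotted). Class II presentation lies highest at 2.52 and imprinted growth genes lowest at -2.14 with the settings used here, and all points of the respiratory chain lie inside the limits.

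Both populations held cells with many replication and mitosis genes. Of 57 measured DNA replication genes, 0 were past 2 in favour of CD11b+CD48+SK cells and 2 in favour of FL HSC, with a median of -0.28, which turned to 0.10 when only cells of overlapping gene number were kept (37 of the CD11b+CD48+SK cells and all FL HSC). The 2 genes were Pole (-2.94), a replicative polymerase, and Prim1 (-2.59), a primase, 3.51% beside 5.32% over all genes. At least 50% of 58 replication genes were present in 30 of 47 CD11b+CD48+SK cells (63.8%, 48.5 to 77.3%) and in 38 of 56 FL HSC (67.9%, 54 to 79.7%). For 58 genes of mitosis and chromosome segregation these numbers were 10 (21.3%, 10.7 to 35.7%) and 16 cells (28.6%, 17.3 to 42.2%). Their median was -0.72, with Cenpa (-3.47), the histone variant of centromeres, and Ccnb1 (-2.07) past the limit, 3.45% beside 5.32% over all genes. Cells with at least 50% of the replication and of the mitosis genes numbered 7 and 0 of 36 BM HSC and 1 and 1 of 41 WT-MPP.

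Myc was present in all 47 CD11b+CD48+SK cells (1.24 to 3892 TPM, median 600) and in 30 FL HSC (median 34.6 TPM). Mycn, its relative, was present in 54 FL HSC (median 326 TPM) and 16 CD11b+CD48+SK cells (median 0.238 TPM). Both genes were present in 29 FL HSC, Mycn without Myc in 25 and Myc without Mycn in 1, while 31 CD11b+CD48+SK cells had Myc alone and 0 had Mycn alone. Cdk6 and Cdkn1c divided the populations further. Cdk6 without Cdkn1c was seen in 40 CD11b+CD48+SK cells and 1 FL HSC, Cdkn1c without Cdk6 in 1 and 38, and both in 0 and 10. At 10 TPM these numbers were 39 and 1, 1 and 43, and 0 and 5. The Cdk4 and Cdk6 inhibitor Cdkn2c (2.04) was higher in CD11b+CD48+SK cells, and Cdkn2d (-2.73), E2f5 and E2f6 (-2.68) were lower. Of the 31 measured cyclins, Cdk inhibitors and related regulators of G1 phase, 3 were past 2 upwards (9.68% beside 1.36%) and 5 downwards (16.1% beside 5.32%). Their median was -0.28 (-0.08 to -0.83 over the settings tried).

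Histone genes had a median of -0.62 over 61 measured. Hist1h2ao (-4.68), Hist3h2ba (-2.95) and Hist1h2ak (-2.64) were past the limit, 4.92% beside 5.32% over all genes, so the list was near the share of all genes. Hist1h2ao had a median of 1344 TPM in FL HSC and 42.3 TPM in CD11b+CD48+SK cells, and belongs to a family of near-identical copies. Cytosolic ribosomal proteins lay slightly above 0, with a median of 0.46 over 79 genes and 74 of the 79 above 0. The share past 2 was 1.27% in each direction, beside 1.36% upwards and 5.32% downwards over all genes. Rpl7a was at 499 to 1595 TPM in CD11b+CD48+SK cells and at 42.1 to 429 TPM in FL HSC (2.36), and Rpl26 differed the other way (-2.81), though processed copies of both genes in the genome make single members uncertain. The respiratory chain was close to equal (0.01 over 76 genes, 0 past the limit).

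Ldhb, a lactate dehydrogenase subunit, was present in all 56 FL HSC (median 453 TPM) and in 22 CD11b+CD48+SK cells (-5.41). Slc2a1, the glucose carrier, was present in 35 and 7 cells (-3.31) and Pdk3, which restrains pyruvate oxidation, in 54 and 33 (-2.36). Hk3, a hexokinase of myeloid cells, was present in 4 FL HSC and in 30 CD11b+CD48+SK cells (3.75). Of 23 measured glycolysis genes, 1 was past 2 in favour of CD11b+CD48+SK cells and 3 in favour of FL HSC (13.04% beside 5.32% over all genes), 6 differences were above 0, and the median was -0.48. For cholesterol and fatty acid synthesis the median was -0.71 over 29 genes, 5 of them above 0, with Fads2 (-3.78), a fatty acid desaturase, Pmvk (-2.29) and Nsdhl (-2.16) past 2 in favour of FL HSC (10.3%).

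Of 33 genes for DNA methylation and Polycomb, the de novo methyltransferases Dnmt3a (-2.92) and Dnmt3b (-2.79) and the Polycomb subunit Eed (-2.04) were past 2 in favour of FL HSC (9.09% beside 5.32% over all genes) and 0 in the other direction, and the median of -0.33 was close to the -0.36 of all genes. Dnmt3a was present in 51 FL HSC and in 20 CD11b+CD48+SK cells. Of 11 Bcl2 family genes, Bok (-2.47) and the survival gene Bcl2l1 (-2.23) were past the limit. Of 27 measured immediate early and heat shock genes, Dusp1 (-3.26), Zfp36 (-3.08) and Fos (-2.57) were past 2 in favour of FL HSC (11.1% beside 5.32%) and Myc (4.86) was past it in the other direction, around a median of -0.58. Fos was present in 37 FL HSC and in 20 CD11b+CD48+SK cells.

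Among homing and adhesion genes, 5 of 26 were past 2 in favour of CD11b+CD48+SK cells (19.2% beside 1.36%) and 1 in favour of FL HSC (3.85% beside 5.32%). They included the tetraspanins Cd53 and Cd37 (3.75), Itgb7 and Itgal (3.24), the alpha chain of the integrin LFA-1, which was present in 31 and 2 cells. Jam3, a junctional adhesion molecule of HSC, was present in 46 FL HSC and in 0 of 47 CD11b+CD48+SK cells (-5.52). Of 32 cytokine receptor genes, Flt3 and Il10rb (2.39) were past 2 upwards (6.25% beside 1.36%), and Epor was 1 of 2 past it downwards (6.25% beside 5.32%). Gp9, a platelet receptor subunit, was present in 45 FL HSC and in 12 CD11b+CD48+SK cells (-4.45), and Selp, another adhesion gene of platelets, in 9 and 25. Lat, an adaptor of T cells and platelets, was present in 31 FL HSC and in 45 CD11b+CD48+SK cells.

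The levels in BM HSC and WT-MPP show which of these genes also set the adult populations apart. Comparisons with them would share cells with the one above, so only the values are given. In the order CD11b+CD48+SK cells, FL HSC, BM HSC and WT-MPP, the level of Pdzk1ip1 was 1.53, 8.49, 9.31 and 7.15, so for this HSC gene CD11b+CD48+SK cells were below all other populations. Cst7 was at 8.38, 0, 0 and 0.19 and Dntt at 7.12, 0, 0.05 and 1.02, highest in CD11b+CD48+SK cells. Hbb-b2 was at 0.52, 9.82, 0.71 and 0.26 and Hist1h2ao at 5.49, 10.17, 3.65 and 4.28, highest in FL HSC. H2-Q7 was at 7.73, 0.26, 7.86 and 7.63 and Rgs1 at 2.77, 0, 5.51 and 7.47, lowest in FL HSC. Hoxb5 followed the order of 5.36, 2.75, 1.28 and 0.93. Each population is 1 sample, so neighbouring levels in these orders were not tested.

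**Figure D5:**
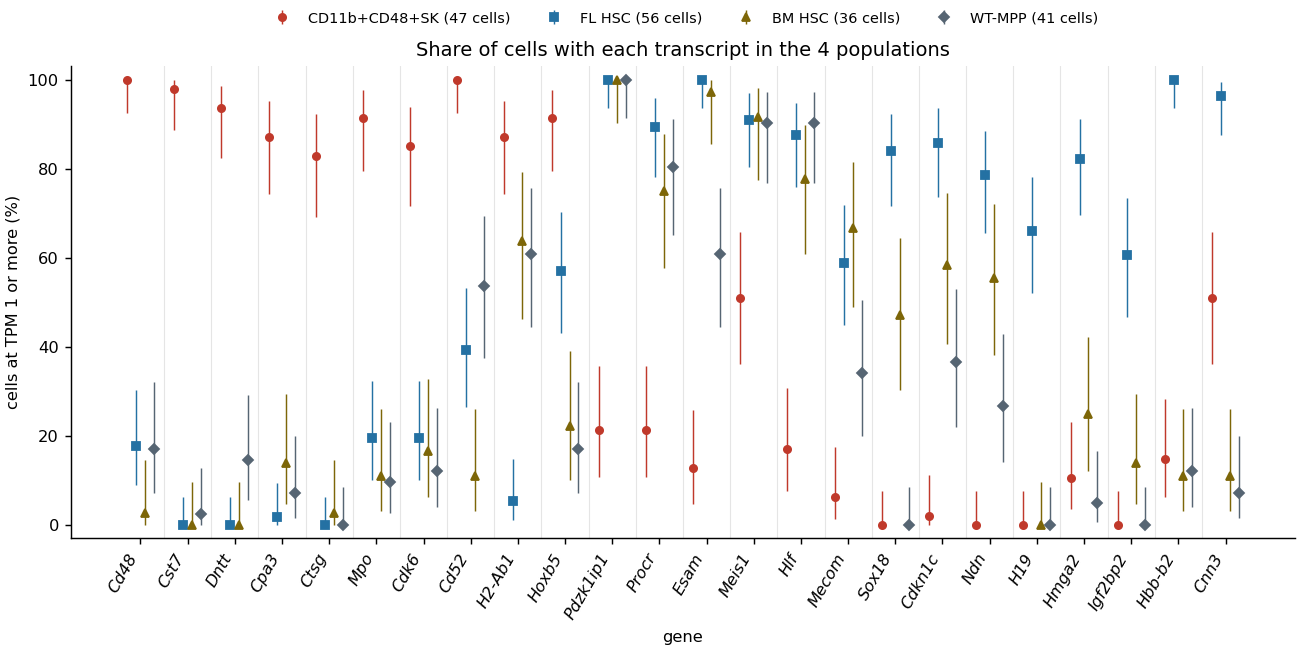
Percentage of cells with at least 1 TPM of 24 genes in CD11b+CD48+SK cells (47), FL HSC (56), BM HSC (36) and WT-MPP (41), with 95% Clopper-Pearson intervals. Pdzk1ip1 is present in 10 CD11b+CD48+SK cells and in all cells of the other populations, whereas H19 is present in 66.1% of FL HSC and in no other cell.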

How the data were processed

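Each GEO sample is 1 cell. The authors deposited 1 table of TPM values for 14825 genes, made from reads of amplified single-cell cDNA. The submitters' processing notes name bcl2fastq, HISAT2 2.1.0, SAMtools 0.1.19, StringTie 1.3.4 and mm10, and the gene annotation is not given in the sources used here. Of 181 cell columns, 1 that no sample's labels name was not used. The library kits do not mark strand, and TPM keeps no read depth, so no floor or interval for reads is given.

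Comparisons ran under Python 3.11.15 (pandas 2.3.3, numpy 2.4.6, scipy 1.17.1) on means over cells of log2(TPM+1), for genes at 1 TPM or above in at least 10% of the cells of either population. The calculation was tested on simulated data. A gene was called at a difference of 2 or a share differing by 50 points. No test between populations was run, since each is 1 sample, and cells of 1 population may share an animal. Named genes are the 15 largest differences each way among genes present in at least 50% of the cells of the higher population, the sort markers, genes the study names, and in each list up to 6 called members each way and the cell type markers at or near 0. Members and lists were chosen with earlier results of these data known. Coordinates came from GENCODE M21 and promoters from RefSeq (GRCm38.p6), and 6 list members were matched by an older symbol. Alternatives changed the pseudocount, averaging, gene filter, scaling, low values, cells and limit of presence. Figures were drawn with matplotlib 3.10.9. A few genes chosen by that rule are left unreported.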

Additional observations from a re-analysis of the deposited data

How the results depend on the processing

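No paired analysis was possible because each population is 1 sample and no result comes from a test. The counts of genes past a difference of 2 depended most on how low values enter the logarithm. In favour of CD11b+CD48+SK cells the 142 genes became 296 with a pseudocount of 0.1, 54 with a pseudocount of 10 and 268 with the log2 of the mean TPM plus 1, and in favour of FL HSC the 554 genes became 1370 and 108 with those pseudocounts. The other settings gave 127 to 160 and 446 to 696 genes. The median over all genes was -0.55 and -0.16 with the pseudocounts of 0.1 and 10, -0.23 with the log2 of the mean, -0.17 with no filter and -0.59 for genes present in at least 50% of the cells. Among list medians at least 0.2 from 0, the sign turned for DNA replication (0.10 in the cells of shared gene number), sort markers (-0.13) and hepatocyte markers (0.0105) under the filter at 50%, and the sex-linked genes (-0.0071 with the log2 of the mean and -0.12 with no filter). Medians nearer 0 crossed it too: B cell markers from -0.13 to 0.47 with the log2 of the mean and 2.75 with the filter at 50%, mast and basophil markers from -0.08 to 0.88 with the log2 of the mean and 0.06 with a pseudocount of 0.1, homing genes from -0.09 to 0.09 with the log2 of the mean, 0.34 with that filter and 0.0001 with median-ratio scaling, and the respiratory chain from 0.0066 to -0.02 with a pseudocount of 0.1. The imprinted growth genes were not the lowest list with no filter (-0.91, HSC surface genes -1.52), with the filter at 50% (-2.71, globins -6.89) or with a pseudocount of 10 (-0.89, globins -0.97). Class II genes were not the highest list with the filter at 50% (4.27, T and NK cell markers 6.03). Over all settings the medians ran from 0.37 to 1.99 for early lymphoid genes, 0.15 to 0.77 for myeloid genes, 0.67 to 1.39 for class I genes, 0.06 to 6.03 for T and NK cell markers, -0.32 to -1.20 for HSC transcription factors, -0.43 to -1.28 for interferon-stimulated genes and -0.73 to -6.89 for globins and haem genes. The cause was not tested. Of 130 named genes past 2, 0 turned sign in the settings run, and 69 fell under 2 in at least 1, 64 of them with a pseudocount of 10. Setting values below 10 TPM to 0, chosen after seeing the data, left 134 and 629 genes past 2. Read depth is not given, so a gene at 0 may have been missed in that cell.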
